A study of Rattus norvegicus with 43 samples.

Results

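Rat primary hepatocytes (RPH) that had been on collagen for 4 hours were compared with the cells of the same livers before plating, across all genes of the array. The samples are the 17 arrays labelled 0 hours or 4 hours, out of 43 arrays in the whole series, and they come from 3 male Sprague Dawley rats. Each rat is represented by 3 technical arrays at 0 hours (9 arrays) and by 2 or 3 at 4 hours (8 arrays), so that 6 rat samples of the 15 in the series enter the comparison. The other arrays hold intact liver of the same rats and RPH after 24 and 48 hours, and they are used here only as reference levels and for the estimate of the spread. RNA was hybridized to Affymetrix RG230-2 arrays.

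The 0 hour sample was the pellet of cells from a perfused liver under pentobarbital, never cultured. The 4 hour sample was taken at the end of the attachment phase, from cells seeded on collagen-coated plates in William's E medium that held serum, insulin, transferrin and dexamethasone besides glutamate and gentamicin. No test compound is named for either group, and the age of the animals was not given in the sources used here. Adhesion to collagen, serum, insulin, dexamethasone, the medium itself and the loss of cells that did not attach all lie between the samples, and their effects cannot be told apart.

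As background, a hepatocyte in the liver is polarized, sits in a soft matrix and rarely divides. Collagenase digestion breaks its contacts, and cells respond to such an insult with a first wave of immediate early transcription factors that is brief, followed by secondary genes such as cytokines, cytoskeletal proteins and the machinery of growth. Hepatocytes that attach and spread in culture are known to move from the quiescent towards the prereplicative state seen after partial hepatectomy, while the genes of the differentiated liver decline over days.

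Values are MAS5 signal intensities, a linear and background-corrected summary of the probes of a probe set, scaled by the authors so that the trimmed mean of each array is 500. Signals were taken to log2, the technical arrays of each rat and time were averaged, and all signals printed are these averages, as geometric means, for rats 1, 2 and 3 in that order. One probe set, the brightest, stood for each gene. A gene is said to have risen or fallen when its adjusted p (limma, Benjamini-Hochberg over all genes tested) was under 0.05, and log2 fold changes are 4 hours vs. 0 hours with the standard error (SE), n = 3 rats per group. Fits named below as having single arrays as the unit held each rat and time as a random block, with a correlation of 0.583 between technical arrays. Signals of different probe sets are not compared with each other. Where a group mean was under 32, close to background, the log2 fold change with an offset of 32 added to every signal is also given.

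The median signal of an array was 96.8 at 0 hours (median of 9 arrays, 87.7 to 116) and 88.7 at 4 hours (8 arrays, 79.7 to 115). Technical arrays of 1 rat correlated at 0.955 to 0.980 at 0 hours and 0.968 to 0.979 at 4 hours, against 0.930 to 0.961 between rats. Control probe sets of beta-actin at the 3' and 5' ends had a ratio, which rises as RNA degrades, of 3.95 ± 0.683 (SD, n = 3 rats) at 0 hours and 3.00 ± 0.143 at 4 hours (exact permutation test, two-sided p = 0.1, the smallest that 3 against 3 allows). The same ratio for Gapdh was 1.56 ± 0.24 (SD, n = 3 rats) at 0 hours and 1.35 ± 0.085 at 4 hours, with overlapping groups (exact permutation test, two-sided p = 0.2). The part of these differences in the results was not tested.

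The label of the cells was checked against marker genes. All 7 tested markers of hepatocytes, which include albumin (Alb), transthyretin (Ttr) and fibrinogen (Fgb), stayed bright and none passed the test, and their summed signal lay between 184103 and 237262 at 0 hours, against 203669.6 to 240685 at 4 hours (exact permutation test, p = 0.5). Alb had signals of 26965, 40544 and 30853 at 0 hours and 31306, 32862 and 41315 at 4 hours, with overlapping groups (log2 fold change 0.11, SE 0.20, adjusted p = 0.701). Markers of other liver cells were present before plating, and the summed signal of several of these lists was lower after it. The summed signal of 25 stellate cell and fibroblast markers lay between 8976 and 17893 at 0 hours, against 2556 to 6628 at 4 hours, that of 33 sinusoidal endothelial markers between 16203 and 25520.4 at 0 hours, against 7955 to 12263 at 4 hours and that of 25 Kupffer cell markers between 31905 and 35060.2 at 0 hours, against 22149 to 27295 at 4 hours. None of these 3 sums overlapped between the times (exact p = 0.1 each), and that of MHC class II genes was also lower without overlap. The sums of lymphocyte (895 to 1310 at 0 hours, 950 to 1189 at 4 hours, exact p = 0.7), hemoglobin, neutrophil and platelet markers overlapped. That of bile duct markers was higher at 4 hours, as given below. In bulk RNA fewer cells of a type and less RNA per cell cannot be told apart.

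In the first 4 hours 4144 of 10643 genes changed (38.9%), of which 1732 rose (16.3%) and 2412 fell (22.7%). Rises and falls were about as frequent beyond 4-fold, and rises were the more frequent beyond 8-fold. More than 4-fold differences were found for 234 genes that rose and 242 that fell, and more than 8-fold for 86 and 46. The direction was the same in all 3 rats for 4132 of the 4144 genes, which is no separate evidence, since the calls were made from the same values. The mean absolute log2 difference within a rat was 0.702 ± 0.0281 (SD, n = 3 rats). As deposited, the median gene had a log2 fold change of -0.15, and 41.8% of the changed genes rose. When each array was centred on its median the median gene was at -0.07, and 1651 genes rose and 1583 fell, so 51.1% of the changed genes rose. When 1 rat was left out of all groups the count of changed genes came to 2632 (rat 1), 2669 (rat 2) and 2702 (rat 3). With more than a 2-fold difference required as well, 915 genes rose and 1068 fell. The counts of each gene list below are to be read against the shares of 16.3% and 22.7%. Over all 10643 genes, called or not, the 2 groups of signals did not overlap for 5024 (47.2%). The groups did not overlap for 1674 of the 1732 genes that rose and 2267 of the 2412 that fell. Statements below that groups lay apart are to be read against these counts, and for called genes they are no separate evidence.

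**Figure D1:**
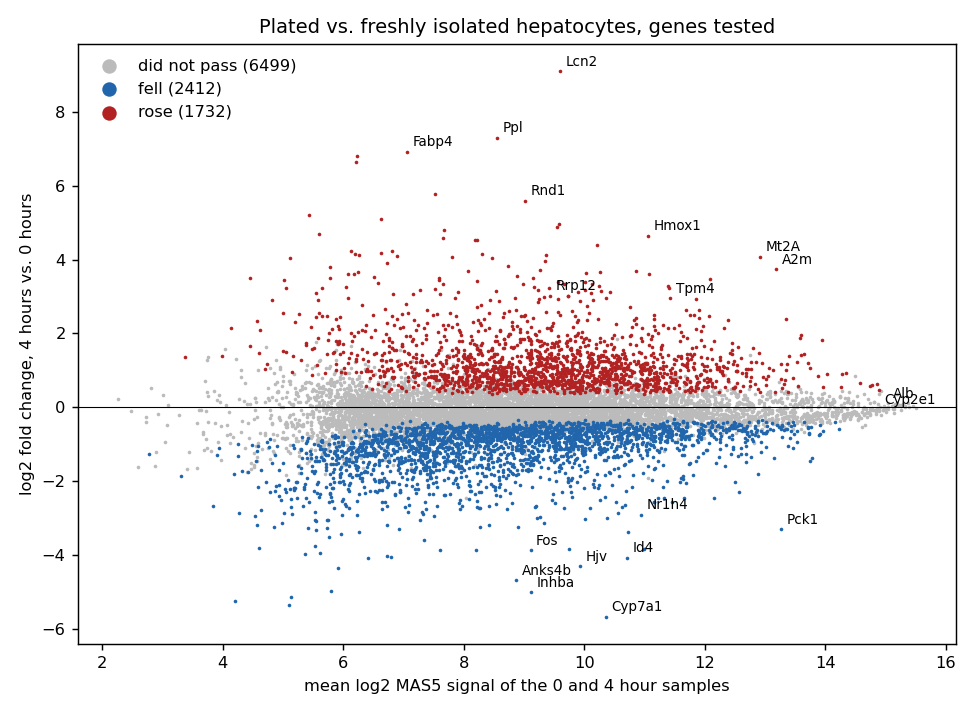
Log2 fold change at 4 hours vs. 0 hours (vertical axis) against the mean log2 MAS5 signal of both times (horizontal axis), 1 point per gene tested, red for the 1732 genes that rose, blue for the 2412 that fell and grey for the rest. Lcn2 at 9.09 and Cyp7a1 at -5.65 are the ends of the range, and the bright hepatocyte genes Alb and Cyp2e1 lie near 0.

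The largest changes are given for genes brighter than the median gene at one of the times. The largest rise was that of Lcn2, which encodes lipocalin 2, a secreted acute phase protein that binds bacterial iron carriers. Its signals were 40.2, 11.5 and 80.0 at 0 hours and 26384, 11236 and 20211 at 4 hours (log2 fold change 9.09, SE 0.53, adjusted p = 1.21e-07). The 4 hour samples were all far brighter than any 0 hour sample. The 0 hour signal of rat 2 was under 32, close to background, which limits the size of the fold. Ppl, which encodes periplakin, a linker of keratin filaments and junctions, had signals of 32.2, 9.75 and 85.4 at 0 hours and 3403, 7755 and 3918 at 4 hours (log2 fold change 7.29, SE 0.63, adjusted p = 2.69e-06, 6.07 with the offset). Rnd1, which loosens actin fibers, had 61.1, 72.5 and 94.1 at 0 hours and 3858, 4259 and 2819 at 4 hours (log2 fold change 5.59, SE 0.22, adjusted p = 7.01e-09). In both, the groups lay far apart, and Rnd1 had a mean signal of 63.2 in liver, 4230.2 at 24 hours and 3923 at 48 hours.

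Several of the top rises encode receptors and signaling enzymes. Tnfrsf12a, the receptor of the cytokine TWEAK, had signals of 161, 113 and 139.8 at 0 hours and 3183, 4692 and 4463 at 4 hours (log2 fold change 4.89, SE 0.23, adjusted p = 2.57e-08). Sphk1, the kinase that makes sphingosine 1-phosphate, had 34.2, 24.9 and 17.8 at 0 hours and 1195, 1672 and 1259 at 4 hours (log2 fold change 5.78, SE 0.37, adjusted p = 2.69e-07, 4.55 with the offset). Olr1, a scavenger receptor for oxidized LDL, had 4.63, 16.2 and 4.77 at 0 hours and 1071, 593 and 767 at 4 hours (log2 fold change 6.79, SE 0.57, adjusted p = 2.28e-06, 4.28 with the offset). These differ in what came later. Tnfrsf12a had a mean of 3782 at 24 hours and 5009.8 at 48 hours, while Sphk1 was at 68.6 and 79.9 and Olr1 at 80.3 and 87.8. Fabp4, a fatty acid binding protein that is also on the list of endothelial markers, went from a mean of 12.1 to 1461 (log2 fold change 6.91, SE 0.62, adjusted p = 3.22e-06, 4.91 with the offset), against the direction of most of that list. B3galnt1, a glycosyltransferase, went from a mean of 7.44 to 741 (log2 fold change 6.64, SE 0.55, adjusted p = 2.05e-06, 4.19 with the offset), and Slc25a29, a mitochondrial carrier of basic amino acids, from a mean of 260.4 to 5426 (log2 fold change 4.38, SE 0.19, adjusted p = 1.23e-08).

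**Figure D2:**
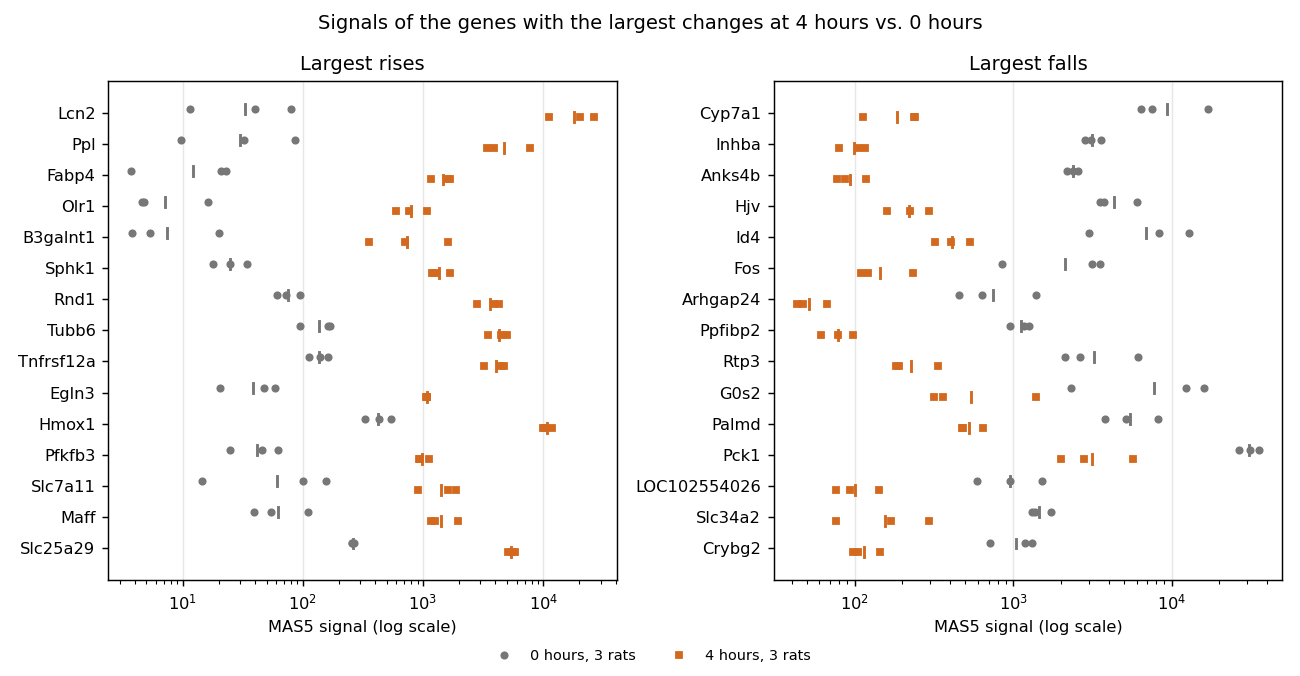
MAS5 signals (horizontal axis, log scale) of the 15 genes with the largest rises (left) and the 15 with the largest falls (right) among genes brighter than the median gene at one of the times, grey circles for the 3 rats at 0 hours, orange squares for the 3 rats at 4 hours and vertical ticks for the geometric means. The 2 groups of points do not overlap for any of the 30 genes, which were called and picked by the size of their change. The same holds for 1674 of the 1732 genes that rose, 2267 of the 2412 that fell and 47.2% of all genes tested.

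The largest fall was that of Cyp7a1, the rate-limiting enzyme of bile acid synthesis from cholesterol. Its signals were 16976, 7522 and 6367 at 0 hours and 237, 113 and 239 at 4 hours (log2 fold change -5.65, SE 0.67, adjusted p = 3.19e-05). Inhba, the beta A subunit of activin, had 3108, 3588 and 2825 at 0 hours and 79.3, 104 and 116 at 4 hours (log2 fold change -5.00, SE 0.28, adjusted p = 8.80e-08). Anks4b, a scaffold protein of microvilli, had 2186, 2398 and 2549 at 0 hours and 118, 87.6 and 77.2 at 4 hours (log2 fold change -4.68, SE 0.24, adjusted p = 4.24e-08). Each of the 3 dropped in every rat to a small part of its starting signal. Their means were 6298, 3191 and 2041 in liver, and at 24 hours they were 827, 858 and 805, between the means at 0 and 4 hours.

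Hjv, or hemojuvelin, a BMP co-receptor needed for the induction of hepcidin, had signals of 3528, 6019 and 3755 at 0 hours and 225, 295 and 159.6 at 4 hours (log2 fold change -4.29, SE 0.27, adjusted p = 2.25e-07), and its mean was 2901 at 24 hours. Id4, an inhibitor of basic helix-loop-helix factors, had 8355, 12872 and 3004 at 0 hours and 405, 531 and 319 at 4 hours (log2 fold change -4.07, SE 0.47, adjusted p = 2.76e-05). Pck1, the first committed enzyme of gluconeogenesis, had 31102, 35666 and 26561 at 0 hours and 2001, 5682 and 2781 at 4 hours (log2 fold change -3.29, SE 0.30, adjusted p = 4.00e-06). Unlike Hjv, Pck1 did not return, with a mean of 189.7 at 24 hours and 551 at 48 hours. Among the other falls in the top 15, Arhgap24, a GTPase activating protein for Rac, had a log2 fold change of -3.85 (SE 0.33), Ppfibp2, a liprin, of -3.85 (SE 0.23), and Palmd, or palmdelphin, of -3.36 (SE 0.40). G0s2, an inhibitor of triglyceride lipase, went from a mean of 7693 to 544 (log2 fold change -3.82, SE 0.83, adjusted p = 0.00270). The call for G0s2 was lost without rat 2 in all groups (adjusted p = 0.0901).

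Some immediate early genes were high in the pellet and fell, and others came up on the plate. Of 11 tested AP-1 subunits, small Maf proteins and Atf3, 4 rose, 3 fell and 4 did not pass (with 1 rat left out 1 to 2 fell), and their median log2 fold change was -0.21. Fos, the classic immediate early partner in AP-1, had signals of 844, 3537 and 3134 at 0 hours and 121, 109 and 232 at 4 hours (log2 fold change -3.86, SE 0.63, adjusted p = 3.84e-04). It had a mean of 124 in liver, so that the 0 hour pellets stood above both liver and the plated cells. Jun had 6356, 16882 and 15593 at 0 hours and 4432, 6423 and 4741 at 4 hours (log2 fold change -1.21, SE 0.29, adjusted p = 0.00536) and was at 2141 in liver, and its groups overlapped only because the 0 hour signal of rat 1 lay just under the 4 hour signal of rat 2. The fall of Jun did not pass without rat 2 or 3 in all groups, with the 0 and 4 hour samples fitted alone or with single arrays as the unit (adjusted p = 0.0554 to 0.240). Atf3, a stress-induced partner of Jun, had 1343, 4435 and 4453 at 0 hours and 1159, 3063 and 1051 at 4 hours and did not pass (log2 fold change -0.94, SE 0.54, adjusted p = 0.186), though it did without the 0 hour sample of rat 1 (adjusted p = 0.0361, log2 fold change -1.52). Its 4 hour signals were still above the liver mean of 162.

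Fosl1 and Maff went the other way. Fosl1, which encodes Fra-1, had signals of 65.6, 56.0 and 51.3 at 0 hours and 423, 1095 and 600.5 at 4 hours (log2 fold change 3.51, SE 0.32, adjusted p = 3.82e-06), and its mean was 132 at 24 hours. Maff, a small Maf protein that pairs with NRF2 and related factors, had 39.3, 54.5 and 110.3 at 0 hours and 1259, 1963 and 1162 at 4 hours (log2 fold change 4.52, SE 0.39, adjusted p = 2.62e-06) and was at 165 by 24 hours. Each had 3 signals at 4 hours above all 3 at 0 hours. Mafk also rose, with a log2 fold change of 1.75 (SE 0.19).

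Among 54 other immediate early genes tested, 19 rose, 14 fell and 21 did not pass (with 1 rat left out 9 to 11 fell), and their median log2 fold change was 0.16. Egr1, a zinc finger factor induced by serum and injury, had signals of 12338, 16481 and 15075 at 0 hours and 4899.7, 4578 and 7962 at 4 hours (log2 fold change -1.37, SE 0.40, adjusted p = 0.0164), and it was at 3529.5 in liver and 857 at 24 hours. The fall of Egr1 did not pass without the 0 hour sample of rat 2, without the 4 hour sample of rat 1 or 2, without rat 2 in all groups or with single arrays as the unit (adjusted p = 0.0510 to 0.124). Nr4a1, an orphan nuclear receptor, fell from a mean of 561 to 132 (log2 fold change -2.09, SE 0.30, adjusted p = 1.45e-04), and Gadd45g, a growth arrest gene, from a mean of 6041 to 1596 (log2 fold change -1.92, SE 0.27, adjusted p = 1.24e-04). Genes that rose instead included Gadd45b, the relative of Gadd45g known from NF-kB signaling, with 377, 453 and 241 at 0 hours and 3665, 5511 and 4074 at 4 hours (log2 fold change 3.66, SE 0.72, adjusted p = 0.00150), and Cebpd, an acute phase transcription factor, with 338, 166 and 198 at 0 hours and 1558, 2798 and 2084 at 4 hours (log2 fold change 3.23, SE 0.30, adjusted p = 4.58e-06). The related genes Gadd45b and Gadd45g thus moved in opposite directions in all 3 rats. Plaur, the urokinase receptor, went from a mean of 16.1 to 301 (log2 fold change 4.23, SE 0.33, adjusted p = 1.30e-06, 2.69 with the offset). Myc, which drives growth and ribosome production, had 1362, 731 and 1522 at 0 hours and 1554, 3348 and 2912 at 4 hours (log2 fold change 1.11, SE 0.36, adjusted p = 0.0260). The 4 hour signal of rat 1 was close to the 0 hour level of rats 1 and 3, and the call was lost without the 0 hour sample of rat 2, without the 4 hour sample of rat 2 or 3, without rat 2 or 3 in all groups, with the 0 and 4 hour samples fitted alone or with the rat as a block in those samples (adjusted p = 0.0696 to 0.244).

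**Figure D3:**
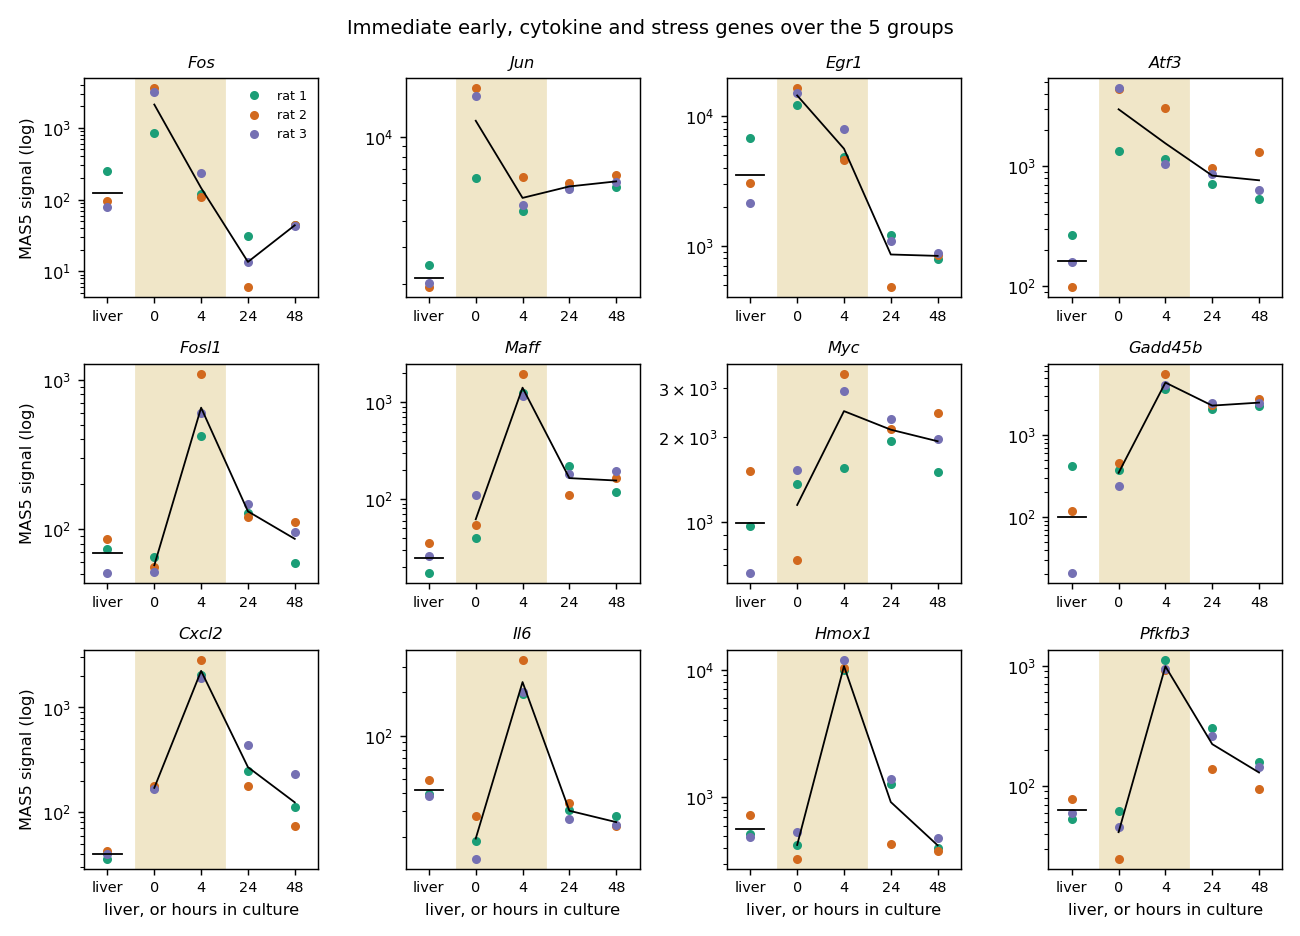
MAS5 signals (vertical axes, log scale) of 12 early and stress genes in liver and at 0, 4, 24 and 48 hours (horizontal axes), 1 point per rat, with a line through the geometric means and the 0 to 4 hour window shaded. Fos and Egr1 are highest at 0 hours, while Fosl1, Maff, Cxcl2, Il6, Hmox1 and Pfkfb3 peak at 4 hours and are lower at 24 hours.

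The promoter of Egr1 is shown because it holds the classic sites for serum response factor, which relays serum and actin signals to immediate early genes. In RefSeq promoters of assembly GRCr8, from 250 bases before to 50 after the start, 1.39% of 8894 promoters of tested genes held a CArG box on either strand, 6 of 45 of the other immediate early genes (13.3%) and 5 of 47 of the actin and contractile genes (10.6%). The CArG boxes are in capitals.
Egr1, chr18:26736963-26736992, plus strand: gtcggtccttCCATATTAGGgcttcctgct
Egr1, chr18:26736985-26737014, plus strand: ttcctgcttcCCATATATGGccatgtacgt
The Egr1 boxes begin 105 and 83 bases before the start, and Egr1 itself fell. Across all genes that rose the share of promoters with a CArG box was 1.41%, and across those that fell 1.78%. Srf, which encodes serum response factor itself, rose from a mean of 446 to 1321 (log2 fold change 1.57, SE 0.20, adjusted p = 6.87e-05). These matches are letters in a window, and binding was not measured.

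Some cytokines and most of the tested feedback genes of NF-kB rose on the plate. Of 30 chemokines and cytokines tested, 12 rose, 5 fell and 13 did not pass, and their median log2 fold change was 0.20. Cxcl2, a neutrophil chemoattractant, had signals of 169, 177 and 168 at 0 hours and 2043, 2844 and 1919 at 4 hours (log2 fold change 3.71, SE 0.37, adjusted p = 7.04e-06), and it was at 39.5 in liver and 269.5 at 24 hours. Il6, the main inducer of the acute phase, had 18.6, 28.0 and 14.1 at 0 hours and 194, 335 and 201 at 4 hours (log2 fold change 3.60, SE 0.25, adjusted p = 6.83e-07, 2.31 with the offset). Ccl4, a macrophage chemokine, had 115, 146 and 85.6 at 0 hours and 1199, 2169 and 1562 at 4 hours (log2 fold change 3.82, SE 0.30, adjusted p = 1.21e-06). All 3 had been low in the pellets and were low again by 24 hours, where Il6 had a mean of 30.3 and Ccl4 of 45.7. Il1rn, the receptor antagonist of interleukin 1, went from a mean of 54.5 to 916 (log2 fold change 4.07, SE 0.50, adjusted p = 4.49e-05). Cxcl12, a chemokine of stromal and endothelial cells, fell from a mean of 7846 to 2759 (log2 fold change -1.51, SE 0.19, adjusted p = 5.77e-05), and Gdf15, a stress cytokine, from a mean of 1715 to 219.7 (log2 fold change -2.96, SE 0.63, adjusted p = 0.00244). The fall of Gdf15 did not pass with single arrays as the unit (adjusted p = 0.0566). The cell type that made the cytokines was not measured, and Kupffer cell markers such as Clec4f, a lectin of these cells, were still present, with 3791, 3264 and 2872 at 0 hours and 1501, 1168 and 1394 at 4 hours.

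Of 29 NF-kB feedback and survival genes tested, 19 rose, 1 fell and 9 did not pass (with 1 rat left out 0 to 2 fell, and with the rat as a block 3 fell), and their median log2 fold change was 1.40, the highest median of the 59 lists examined. Bcl3, an atypical inhibitor of NF-kB that acts in the nucleus, had signals of 481, 343 and 446 at 0 hours and 3087, 3651 and 4548 at 4 hours (log2 fold change 3.15, SE 0.29, adjusted p = 4.46e-06). Tnfaip3, or A20, which ends NF-kB signaling, had 598, 441 and 533 at 0 hours and 3439, 2107 and 2859.6 at 4 hours (log2 fold change 2.40, SE 0.21, adjusted p = 3.18e-06). Il1r1, the interleukin 1 receptor, had 1144, 1244 and 1724 at 0 hours and 10799, 10867 and 9229.7 at 4 hours (log2 fold change 2.93, SE 0.28, adjusted p = 6.07e-06). None of these groups overlapped. Nfkbia, the main inhibitor, rose from a mean of 1693 to 3237 (log2 fold change 0.94, SE 0.31, adjusted p = 0.0313), a call lost without the 0 hour sample of rat 2 or 3, without the 4 hour sample of rat 1, 2 or 3, without rat 2 or 3 in all groups or without the filter on absent genes (adjusted p = 0.0501 to 0.204). The subunit Nfkb1 rose, at 1.48 (SE 0.21), and so did Relb, at 1.41 (SE 0.24). Rela, the transactivating subunit, did not pass (log2 fold change 0.46, SE 0.24, adjusted p = 0.145), though it did with single arrays as the unit (adjusted p = 0.0486). Irf1, an interferon-induced factor, fell from a mean of 659.6 to 272 (log2 fold change -1.28, SE 0.31, adjusted p = 0.00603). Its call was lost without rat 1 or 2 in all groups (adjusted p = 0.0780 to 0.0816).

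The NF-kB site, whose consensus is named and not spelled here, was present in 44% of the promoters of this list (11 of 25) and in 29.2% of those of chemokines and cytokines (7 of 24), against 9.77% of all tested promoters. The sites of 4 genes of these lists that rose are shown in capitals, to give the letters of the site in its context, in GRCr8. They were picked after their values were seen.
Cxcl2, chr14:17467310-17467339, minus strand: cctaagctcaGGGGATTTCCctgatccctg
Il6, chr4:5894624-5894653, minus strand: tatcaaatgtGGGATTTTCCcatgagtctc
Bcl3, chr1:88613574-88613603, minus strand: tcggcggcagGGGAAGTCCCgcagcccggc
Tnfaip3, chr1:15544027-15544056, minus strand: tcacgtgactGGAAAGTCCCtcggaaatcc
They begin 74, 68, 38 and 67 bases before the start. The one of Tnfaip3 is 1 of 3 sites in its window, and that of Cxcl2 overlaps a second match shifted by 1 base. Across all genes that rose the share was 10.5%, and across those that fell 8.28%. Irf1, which fell, holds such a site too.

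Acute phase genes were uneven at 4 hours. Of 35 tested, 14 rose, 0 fell and 21 did not pass, and their median log2 fold change was 0.36. A2m, alpha-2-macroglobulin, a protease inhibitor and major acute phase protein of the rat, had signals of 2255, 2077 and 3561 at 0 hours and 37147, 31034 and 34267 at 4 hours (log2 fold change 3.74, SE 0.23, adjusted p = 2.43e-07). Its mean was still 35492 at 24 hours. Stat3, a transcription factor activated by interleukin 6, went from a mean of 1276 to 5681 (log2 fold change 2.15, SE 0.22, adjusted p = 1.12e-05), Il6r, the receptor of interleukin 6, from a mean of 1431 to 4277 (log2 fold change 1.58, SE 0.23, adjusted p = 1.59e-04), and Lbp, a carrier of lipopolysaccharide, from a mean of 3235 to 6882 (log2 fold change 1.09, SE 0.24, adjusted p = 0.00318). Lbp did not pass without rat 1 in all groups (adjusted p = 0.0559). Other acute phase proteins did not pass, among them Hp, or haptoglobin (log2 fold change 0.09, SE 0.16, adjusted p = 0.686), Fgg, a fibrinogen chain (log2 fold change 0.12, SE 0.17, adjusted p = 0.618), and Crp, C-reactive protein (log2 fold change 0.16, SE 0.22, adjusted p = 0.612).

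Most of the tested ribosome biogenesis factors rose. Of 128 tested factors of ribosome biogenesis, 104 rose, 0 fell and 24 did not pass (with the rat as a block 1 fell), and their median log2 fold change was 1.08, against -0.15 over all genes. In single rats the median was 0.97, 1.15 and 1.00. Rrp12, an export factor of ribosomal subunits, had signals of 300.5, 176 and 270.1 at 0 hours and 1562, 2135 and 2319 at 4 hours (log2 fold change 3.03, SE 0.27, adjusted p = 3.57e-06). Tsr1, an assembly factor of the small subunit, had 1209, 948 and 789.8 at 0 hours and 4780.1, 6093 and 5499.8 at 4 hours (log2 fold change 2.49, SE 0.22, adjusted p = 3.50e-06), and Heatr1, needed for transcription of ribosomal RNA, 449, 290.1 and 258 at 0 hours and 2359, 1304 and 1251 at 4 hours (log2 fold change 2.28, SE 0.33, adjusted p = 1.61e-04). The groups were apart for all 3, and at 24 hours the means were lower again, at 716, 3122 and 654. Of 32 subunits and factors of RNA polymerases I and III, 21 rose, 4 fell and 7 did not pass (with 1 rat left out 13 to 16 rose and 1 to 3 fell), and their median log2 fold change was 0.61. Polr1b, the second largest subunit of polymerase I, went from a mean of 330.2 to 1507 (log2 fold change 2.19, SE 0.14, adjusted p = 2.69e-07). Maf1, which represses polymerase III, fell from a mean of 252 to 102 (log2 fold change -1.30, SE 0.24, adjusted p = 0.00108).

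Few of the ribosomal proteins themselves passed. Of 40 tested, 3 rose, 0 fell and 37 did not pass (with 1 rat left out 1 to 2 rose), and their median log2 fold change was 0.17. The 3 were Rps13 (log2 fold change 1.31, SE 0.35, adjusted p = 0.00912), Rpl39 (log2 fold change 1.24, SE 0.39, adjusted p = 0.0227) and Rpl3 (log2 fold change 0.56, SE 0.19, adjusted p = 0.0349). Rps13 lost its call without rat 3 in all groups or with the 0 and 4 hour samples fitted alone (adjusted p = 0.0503 to 0.0927). Rpl39 lost it without the 0 hour sample of rat 2 or 3, without the 4 hour sample of rat 1 or 3, without rat 3 in all groups, with the 0 and 4 hour samples fitted alone or with single arrays as the unit (adjusted p = 0.0689 to 0.290), and Rpl3 without the 0 hour sample of rat 1 or 2, without the 4 hour sample of rat 1, 2 or 3, without rat 1 or 2 in all groups, with each array centred on its median, with the mean of its probe sets, without the filter on absent genes or with the 0 and 4 hour samples fitted alone (adjusted p = 0.0555 to 0.458). Among genes that feed translation, rises outnumbered falls. Of 22 tRNA synthetases and their cofactors, 15 rose, 0 fell and 7 did not pass (with 1 rat left out 9 to 13 rose), and their median log2 fold change was 0.58, of 50 translation factors, 24 rose, 1 fell and 25 did not pass (with 1 rat left out 0 to 1 fell), and their median log2 fold change was 0.51, and of 56 nuclear transport factors, 22 rose, 1 fell and 33 did not pass (with 1 rat left out 14 to 19 rose), and their median log2 fold change was 0.51. Eef1e1, a scaffold of the synthetase complex, had signals of 1238, 1247 and 1152 at 0 hours and 3741, 4766 and 3276 at 4 hours (log2 fold change 1.68, SE 0.19, adjusted p = 2.28e-05), and Ipo5, an importin that carries ribosomal proteins, 989.5, 597 and 924 at 0 hours and 3201, 2840.3 and 3159.8 at 4 hours (log2 fold change 1.91, SE 0.21, adjusted p = 1.85e-05). In each, the lowest 4 hour signal was above the highest 0 hour signal. Of 32 genes of nucleotide and one-carbon synthesis, 16 rose, 4 fell and 12 did not pass (with 1 rat left out 1 to 2 fell, and with arrays centred 1 fell), and their median log2 fold change was 0.48. Ctps1, which makes CTP, went from a mean of 263 to 1181 (log2 fold change 2.17, SE 0.21, adjusted p = 5.87e-06), and Mthfd2, a mitochondrial folate enzyme, from a mean of 117 to 769 (log2 fold change 2.72, SE 0.60, adjusted p = 0.00305).

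The E box CACGTG, the site of MYC and related factors and its own reverse complement, was found in 32.2% of the promoters of ribosome biogenesis factors (37 of 115). The share was 9.56% of all tested promoters, 13.1% of those of genes that rose, 16.4% where they rose more than 2-fold, 8.23% of those that fell and 9.08% of the rest. The 4 members with the largest rises among those with an E box and its flanks before the start were picked after their values were seen, to show what the box looks like in this list.
Utp20, chr7:25102959-25102988, minus strand: cagcactagctaCACGTGagaaaaagcaga
Lyar, chr14:76802838-76802867, minus strand: cggctgcagctcCACGTGctcctggcggcc
Gnl3, chr16:6219790-6219819, minus strand: agttccagttcgCACGTGgcgcccgagacg
Utp4, chr19:51702204-51702233, plus strand: tgcgcacgcgcgCACGTGggaccggggcgg
Utp20 and Utp4, parts of the complex that processes the small subunit RNA, rose by log2 fold changes of 1.62 (SE 0.15) for Utp20 and 1.34 (SE 0.14) for Utp4, Lyar, a nucleolar zinc finger protein, by 1.47 (SE 0.21), and Gnl3, or nucleostemin, by 1.35 (SE 0.20). The shares are a description, and the base composition of the promoters was not matched.

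Few subunits of the proteasome or of oxidative phosphorylation passed. Of 44 proteasome subunits, 4 rose, 2 fell and 38 did not pass (with 1 rat left out 1 to 2 rose and 0 to 1 fell, and with the rat as a block 8 rose, and with arrays centred 2 rose and 1 fell), and their median log2 fold change was 0.11. Of 68 subunits of oxidative phosphorylation, 0 rose, 8 fell and 60 did not pass (with 1 rat left out 1 fell, and with arrays centred 0 fell), and their median log2 fold change was -0.23, with a range of -0.64 to 0.01. Of 87 genes of the mitochondrial ribosome and import, 13 rose, 15 fell and 59 did not pass (with 1 rat left out 7 to 10 rose and 4 to 10 fell, and with arrays centred 5 fell), and their median log2 fold change was -0.10. Psmd8, a proteasome lid subunit, went from a mean of 3618 to 6900.3 (log2 fold change 0.93, SE 0.14, adjusted p = 1.73e-04), and Ndufc1, a subunit of complex I, from a mean of 8714 to 5595 (log2 fold change -0.64, SE 0.12, adjusted p = 0.00139). Ndufc1 did not pass with each array centred on its median (adjusted p = 0.0540). Of 78 splicing factors, 28 rose, 4 fell and 46 did not pass (with 1 rat left out 18 to 19 rose), and their median log2 fold change was 0.30, with Prpf19, a core factor of the spliceosome, at 1.64 (SE 0.18) and Hnrnpm, an RNA binding protein, at -1.11 (SE 0.18).

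Most of the tested genes known to respond to low oxygen rose. Of 20 tested, 12 rose, 0 fell and 8 did not pass (with the rat as a block 1 fell), and their median log2 fold change was 1.29. Egln3, a prolyl hydroxylase that marks HIF for destruction, had signals of 47.7, 20.4 and 59.2 at 0 hours and 1049, 1086 and 1087 at 4 hours (log2 fold change 4.80, SE 0.47, adjusted p = 7.01e-06). Pfkfb3, which makes the activator of phosphofructokinase, had 62.3, 24.8 and 45.4 at 0 hours and 1118, 919.7 and 936 at 4 hours (log2 fold change 4.58, SE 0.34, adjusted p = 9.21e-07). Slc2a1, the glucose transporter GLUT1, had 195, 199 and 209 at 0 hours and 1463, 1905 and 2147 at 4 hours (log2 fold change 3.18, SE 0.22, adjusted p = 6.83e-07). The 3 genes were well apart between the times. By 24 hours Egln3 was at 758 and Pfkfb3 at 223. Hif1a itself (log2 fold change -0.21, SE 0.21, adjusted p = 0.460), Vegfa, an angiogenic factor (log2 fold change 0.45, SE 0.22, adjusted p = 0.121, but passing without the 0 hour sample of rat 3 or with single arrays as the unit (adjusted p = 0.0327 to 0.0498)), and Ldha, lactate dehydrogenase (log2 fold change 0.13, SE 0.14, adjusted p = 0.519), did not pass. Of 27 genes of glycolysis and glucose uptake, 8 rose, 3 fell and 16 did not pass (with 1 rat left out 5 to 9 rose and 1 fell, and with arrays centred 1 fell), and their median log2 fold change was 0.19. Aldoa, the aldolase of muscle and growing cells, went from a mean of 1934 to 8032 (log2 fold change 2.05, SE 0.20, adjusted p = 5.92e-06).

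Oxidative and metal stress genes had a few very large rises. Of 28 NRF2 target genes, 7 rose, 4 fell and 17 did not pass, and their median log2 fold change was 0.26. Hmox1, which degrades heme, had signals of 428, 331 and 541 at 0 hours and 9866, 10289 and 11904 at 4 hours (log2 fold change 4.65, SE 0.36, adjusted p = 1.15e-06), and it was back at 920.2 by 24 hours. Srxn1, or sulfiredoxin, went from a mean of 613 to 7537 (log2 fold change 3.62, SE 0.32, adjusted p = 3.21e-06), and Akr1b8, an aldo-keto reductase, from a mean of 18.5 to 320.2 (log2 fold change 4.11, SE 0.54, adjusted p = 6.89e-05, 2.76 with the offset). Nqo1, a quinone reductase that is a common readout of NRF2, did not pass (log2 fold change -0.0045, SE 0.21, adjusted p = 0.989), and Nfe2l2, which encodes NRF2, fell, with 4209.8, 4424 and 4412 at 0 hours and 1736, 1385 and 1379 at 4 hours (log2 fold change -1.54, SE 0.20, adjusted p = 6.03e-05). Mt2A, a metallothionein that binds zinc and is induced by glucocorticoids, had 2013, 705 and 4711 at 0 hours and 31639, 28931 and 34909.5 at 4 hours (log2 fold change 4.07, SE 0.58, adjusted p = 1.39e-04), with a wide spread at 0 hours.

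The amino acid importers Slc7a11 and Slc7a1 rose. Of 32 targets of ATF4, the factor of the integrated stress response, 15 rose, 4 fell and 13 did not pass (with 1 rat left out 8 to 10 rose), and their median log2 fold change was 0.80. Slc7a11, the cystine importer, had signals of 155, 14.4 and 100.4 at 0 hours and 1626, 910.3 and 1876 at 4 hours (log2 fold change 4.53, SE 0.67, adjusted p = 1.74e-04), and Slc7a1, the importer of arginine and lysine, 434, 64.8 and 224 at 0 hours and 1861, 1504 and 2005 at 4 hours (log2 fold change 3.27, SE 0.53, adjusted p = 3.86e-04). Rat 2 was the lowest at 0 hours in both. Asns, asparagine synthetase (log2 fold change 0.75, SE 0.50, adjusted p = 0.257, but passing with single arrays as the unit (adjusted p = 0.0394)), and Ddit3, or CHOP (log2 fold change -0.34, SE 0.21, adjusted p = 0.211), did not pass. Sesn2, a sestrin, fell from a mean of 1322 to 451 (log2 fold change -1.55, SE 0.23, adjusted p = 1.95e-04). The octamer TGATGCAA, the ATF4 site, was found on either strand in 7 of 20 promoters of tRNA synthetases and cofactors (35%) and 4 of 31 of the ATF4 targets (12.9%), against 0.618% of all tested promoters. Of 50 cytosolic and mitochondrial chaperones, 15 rose, 2 fell and 33 did not pass (with 1 rat left out 7 to 8 rose and 1 fell, and with arrays centred 9 rose and 1 fell), and their median log2 fold change was 0.33, and of 45 genes of the endoplasmic reticulum and its stress response, 6 rose, 5 fell and 34 did not pass (with 1 rat left out 3 to 5 rose and 1 to 3 fell, and with arrays centred 1 fell), and their median log2 fold change was -0.03. Hspa1a, the heat-induced Hsp70, did not pass (log2 fold change -1.16, SE 0.56, adjusted p = 0.116), though it did without the 0 hour sample of rat 1 or without rat 1 in all groups (adjusted p = 3.84e-04 to 0.00445, log2 fold change -2.06 to -2.09), and neither did Hspa5, or BiP (log2 fold change 0.02, SE 0.20, adjusted p = 0.944). Edem1, which sends misfolded glycoproteins to degradation, rose from a mean of 8369 to 29869.6 (log2 fold change 1.84, SE 0.27, adjusted p = 1.73e-04).

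Some adhesion and cytoskeleton genes had changed by the end of attachment. Of 57 actin and contractile genes, 14 rose, 5 fell and 38 did not pass (with 1 rat left out 9 to 12 rose, and with the rat as a block 8 fell), and their median log2 fold change was 0.30. Tpm4, a tropomyosin of non-muscle cells, had signals of 982, 794 and 1251 at 0 hours and 7596, 7466 and 8023 at 4 hours (log2 fold change 2.96, SE 0.19, adjusted p = 3.15e-07). Wdr1, which helps cofilin to disassemble actin, had 755, 671 and 789 at 0 hours and 2451, 3005 and 2756 at 4 hours (log2 fold change 1.89, SE 0.17, adjusted p = 4.00e-06). Lima1, or EPLIN, which stabilizes actin bundles, had 2027, 1469 and 1613 at 0 hours and 508, 404 and 379.6 at 4 hours (log2 fold change -1.98, SE 0.21, adjusted p = 1.16e-05). Tpm4 and Wdr1 rose and Lima1 fell, with no overlap. Acta1, the skeletal muscle actin, did not pass at 4 hours (log2 fold change 1.01, SE 0.56, adjusted p = 0.170, 0.35 with the offset), though it did without the 0 hour sample of rat 1 or without rat 1 in all groups (adjusted p = 0.00318 to 0.00642, log2 fold change 1.61 to 1.84), and had means of 3498 at 24 hours and 16123 at 48 hours. Vim, vimentin of mesenchymal cells, did not pass either (log2 fold change 0.42, SE 0.27, adjusted p = 0.246). Tubb6, a tubulin of non-hepatic tissues, had 169, 95.0 and 162 at 0 hours and 5018, 3471 and 4433 at 4 hours (log2 fold change 4.95, SE 0.24, adjusted p = 2.57e-08), and its relative Tubb4b 4852, 4659 and 4578 at 0 hours and 10046, 9201 and 9676 at 4 hours (log2 fold change 1.04, SE 0.13, adjusted p = 5.05e-05).

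Of 43 integrin and focal adhesion genes, 13 rose, 2 fell and 28 did not pass (with 1 rat left out 0 to 2 fell), and their median log2 fold change was 0.26. Tes, or testin, a focal adhesion protein, had signals of 313, 449 and 392 at 0 hours and 3164, 3706 and 2882 at 4 hours (log2 fold change 3.09, SE 0.20, adjusted p = 2.88e-07). Pdlim1, which binds alpha-actinin, had 2110.5, 1253 and 1386 at 0 hours and 9588, 9881 and 9198 at 4 hours (log2 fold change 2.63, SE 0.21, adjusted p = 1.43e-06), and Zyx, or zyxin, 513, 350.0 and 675 at 0 hours and 1657, 1758 and 2886 at 4 hours (log2 fold change 2.04, SE 0.36, adjusted p = 7.40e-04). All signals at 4 hours were above those at 0 hours. Cd9, a tetraspanin partner of integrins, went from a mean of 20.9 to 252 (log2 fold change 3.60, SE 0.61, adjusted p = 5.03e-04, 2.30 with the offset). Targets of YAP and TEAD, the effectors of stiffness and spreading, did not move as 1 list. Of 25 tested, 3 rose, 9 fell and 13 did not pass, and their median log2 fold change was -0.51. Ccn2, a matricellular protein, had 417, 85.7 and 110.2 at 0 hours and 1819.8, 3907 and 2853 at 4 hours (log2 fold change 4.11, SE 0.48, adjusted p = 2.74e-05) and went on to 18112 at 24 hours, whereas Ccn1, its relative, did not pass (log2 fold change -0.51, SE 0.29, adjusted p = 0.188) and Nuak2, a kinase of the same list, fell from a mean of 630.2 to 99.3 (log2 fold change -2.67, SE 0.25, adjusted p = 5.14e-06). Some of the falling members, such as Axl at -1.92 (SE 0.33), a receptor that is also a Kupffer cell marker here, belong to other cell types as well.

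Junction and matrix genes moved in both directions. Of 28 cell junction genes, 6 rose, 7 fell and 15 did not pass (with 1 rat left out 3 to 4 rose and 4 to 6 fell), and their median log2 fold change was -0.11. The shares, 21.4% up and 25.0% down, were near the 16.3% and 22.7% over all genes. Cdh1, or E-cadherin, had signals of 3816, 2672 and 3555 at 0 hours and 8594, 8599 and 10333 at 4 hours (log2 fold change 1.47, SE 0.28, adjusted p = 0.00125), and Dsp, desmoplakin, rose from a mean of 2281 to 4848 (log2 fold change 1.09, SE 0.17, adjusted p = 2.74e-04). Cgn, or cingulin, of tight junctions, had 779.5, 695 and 888 at 0 hours and 104, 101 and 159 at 4 hours (log2 fold change -2.72, SE 0.23, adjusted p = 2.43e-06), and Cldn1, a claudin, fell from a mean of 1291 to 539.8 (log2 fold change -1.26, SE 0.26, adjusted p = 0.00225). Cdh1 and Dsp, of adherens junctions and desmosomes, thus rose and Cgn and Cldn1, of tight junctions, fell, a contrast noted after the values were seen. These genes were picked among the called members, and types of junction were not compared over the whole list. Of 56 matrix genes, 7 rose, 18 fell and 31 did not pass (with 1 rat left out 8 to 14 fell), and their median log2 fold change was -0.36. Lamc1, a laminin chain, rose from a mean of 391 to 2184 (log2 fold change 2.48, SE 0.19, adjusted p = 1.14e-06). The falling ones, such as Fbn1, fibrillin, at -2.28 (SE 0.57), include products of stellate cells, whose summed markers were lower at 4 hours. The call for Fbn1 was lost without rat 3 in all groups (adjusted p = 0.0574).

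**Figure D4:**
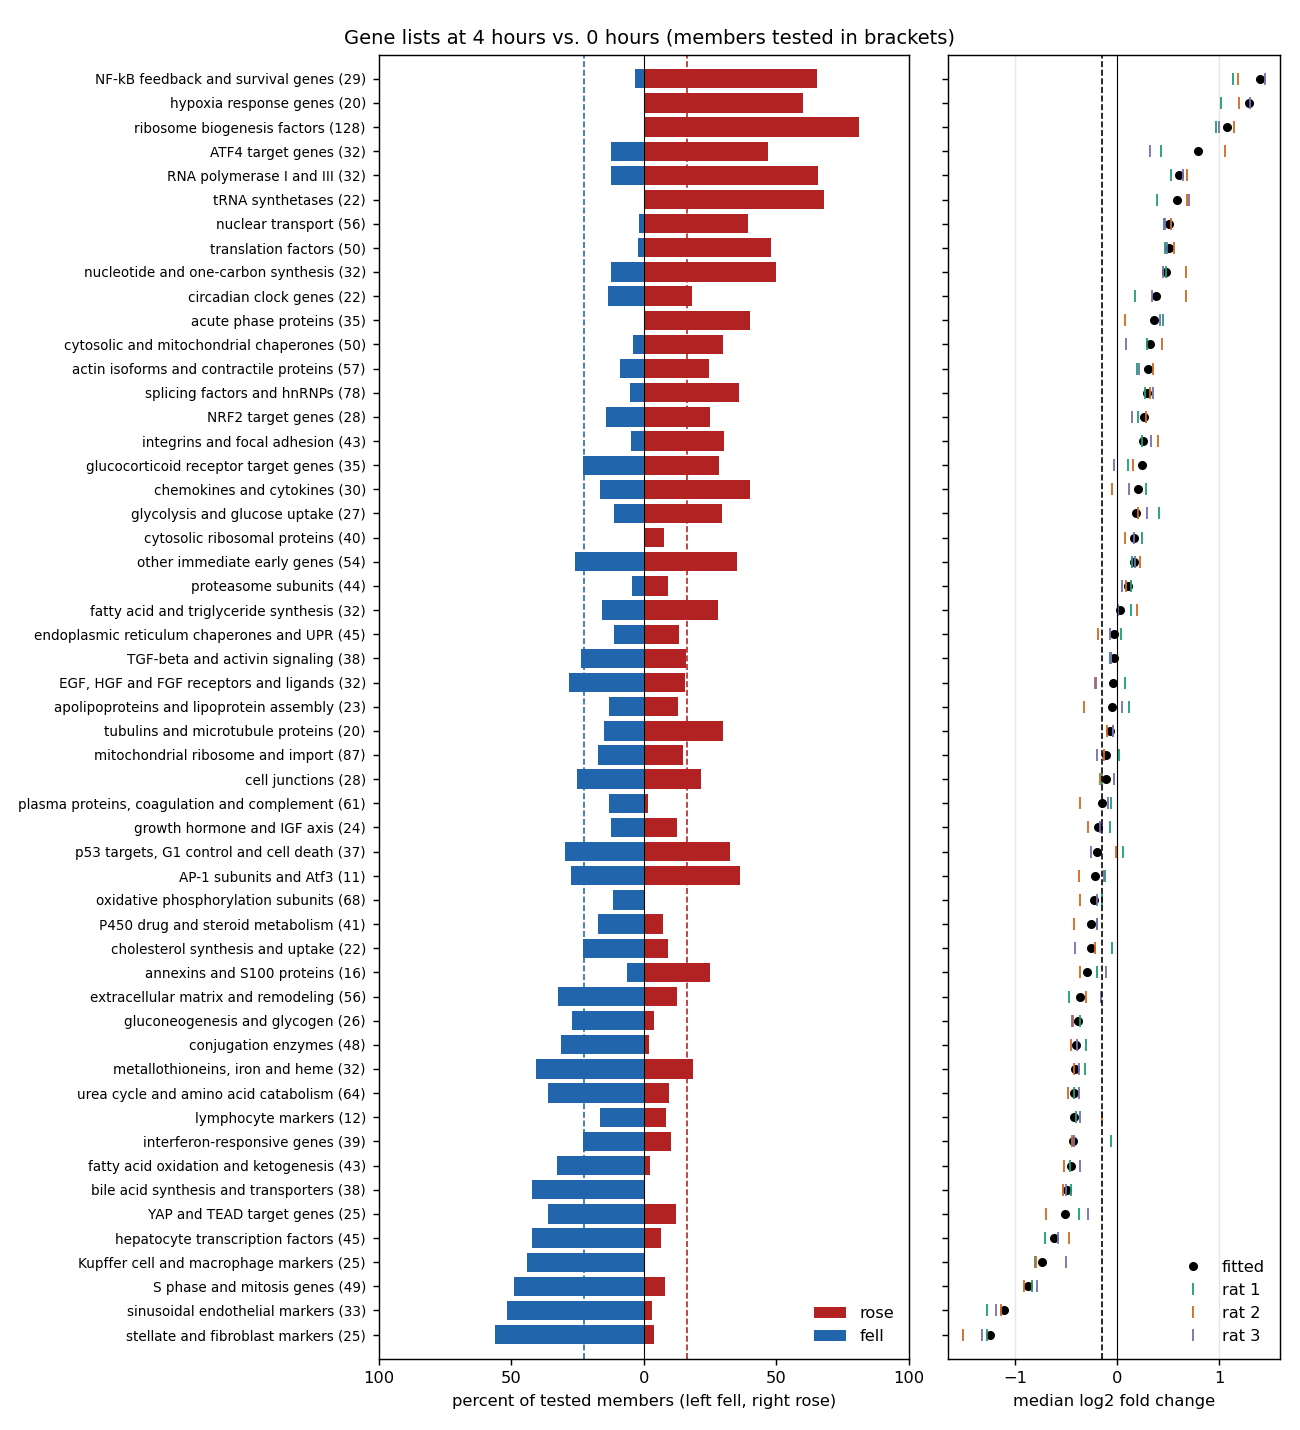
Share of the tested members of each list with at least 10 tested members that rose (red, to the right) or fell (blue, to the left) on the left, and the median log2 fold change on the right, as a black point for the fit and a colored tick per rat. Dashed lines mark all genes tested, at 16.3% up, 22.7% down and a median of -0.15, and NF-kB feedback, hypoxia and ribosome biogenesis genes lie at the top with stellate and endothelial markers at the bottom.

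Many transcription factors of the hepatocyte fell. Of 45 tested, 3 rose, 19 fell and 23 did not pass, and their median log2 fold change was -0.62. Nr0b2, or SHP, a repressor induced by bile acids, had signals of 5055, 5903 and 1748 at 0 hours and 429, 381 and 633 at 4 hours (log2 fold change -2.99, SE 0.55, adjusted p = 9.56e-04). Nr1h4, the bile acid receptor FXR, had 4352, 4943 and 7203 at 0 hours and 538, 579.9 and 1202 at 4 hours (log2 fold change -2.90, SE 0.28, adjusted p = 6.53e-06), and Nr1i3, the xenobiotic receptor CAR, 846, 855 and 678 at 0 hours and 121, 172 and 83.3 at 4 hours (log2 fold change -2.71, SE 0.25, adjusted p = 4.68e-06). Every 4 hour signal was below every 0 hour signal in the 3 genes. Foxa2, a pioneer factor of liver, had 1032, 1944 and 2857 at 0 hours and 287, 411 and 222 at 4 hours (log2 fold change -2.59, SE 0.36, adjusted p = 1.20e-04), and it was at 1582 at 24 hours, near the liver mean of 1528. Hnf4a, the central factor of hepatocyte identity, had 11100.1, 13141 and 7906 at 0 hours and 7688, 8673 and 7963 at 4 hours and did not pass (log2 fold change -0.37, SE 0.19, adjusted p = 0.131), though it did without the 0 hour sample of rat 3 or with single arrays as the unit (adjusted p = 0.0131 to 0.0222, log2 fold change -0.37 to -0.58). Cebpa, a factor of metabolic genes, did not pass (log2 fold change -0.68, SE 0.30, adjusted p = 0.0846), though it did without the 0 hour sample of rat 2, without the 4 hour sample of rat 3 or with single arrays as the unit (adjusted p = 0.00818 to 0.0461). The 3 that rose were Foxa3, from a mean of 514 to 1357 (log2 fold change 1.40, SE 0.22, adjusted p = 2.64e-04), Ppara, the fatty acid receptor of fasting (log2 fold change 1.74, SE 0.59, adjusted p = 0.0326), and Arnt, the partner of HIF and of the aryl hydrocarbon receptor (log2 fold change 2.54, SE 0.55, adjusted p = 0.00271). Ppara did not pass without the 0 hour sample of rat 1 or 2, without the 4 hour sample of rat 2 or 3, without rat 1 or 3 in all groups, without the filter on absent genes or with single arrays as the unit (adjusted p = 0.0516 to 0.150).

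Most enzymes of drug metabolism did not pass. Of 41 P450 and related genes, 3 rose, 7 fell and 31 did not pass (with 1 rat left out 1 to 2 rose and 2 to 4 fell, and with arrays centred 3 fell), and their median log2 fold change was -0.25. Cyp2e1, which oxidizes ethanol, had signals of 29998, 29692 and 33190.0 at 0 hours and 30789, 23099 and 36499 at 4 hours (log2 fold change -0.06, SE 0.32, adjusted p = 0.902), and Cyp3a2, a major drug-metabolizing P450 of male rats, 25550.2, 26913 and 27093 at 0 hours and 27079.9, 21991 and 29493 at 4 hours (log2 fold change -0.03, SE 0.33, adjusted p = 0.958). Both overlapped fully at this stage, while their means at 24 hours were 3266 and 9721. Por, the reductase that supplies electrons to all microsomal P450s, had 1646, 1165 and 2382 at 0 hours and 7756, 9757 and 9454 at 4 hours (log2 fold change 2.43, SE 0.22, adjusted p = 3.92e-06). Cyp1a1, the target of the aryl hydrocarbon receptor, had 5.72, 9.21 and 236 at 0 hours and 190.3, 618 and 622 at 4 hours and a spread at 0 hours set by rat 3 (log2 fold change 4.17, SE 1.53, adjusted p = 0.0448, 2.60 with the offset). Its call was lost without the 0 hour sample of rat 1 or 2, without the 4 hour sample of rat 1, 2 or 3, without rat 1 or 2 in all groups, without the filter on absent genes, with the 0 and 4 hour samples fitted alone or without the liver samples (adjusted p = 0.0517 to 0.187). Of 48 conjugation enzymes, 1 rose, 15 fell and 32 did not pass (with 1 rat left out 7 to 9 fell, and with arrays centred 8 fell), and their median log2 fold change was -0.40. Fmo4, a flavin monooxygenase, fell from a mean of 462 to 89.1 (log2 fold change -2.37, SE 0.22, adjusted p = 4.73e-06), and Gstm3, a glutathione transferase, rose from a mean of 272 to 1617 (log2 fold change 2.57, SE 0.33, adjusted p = 5.62e-05).

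**Figure D5:**
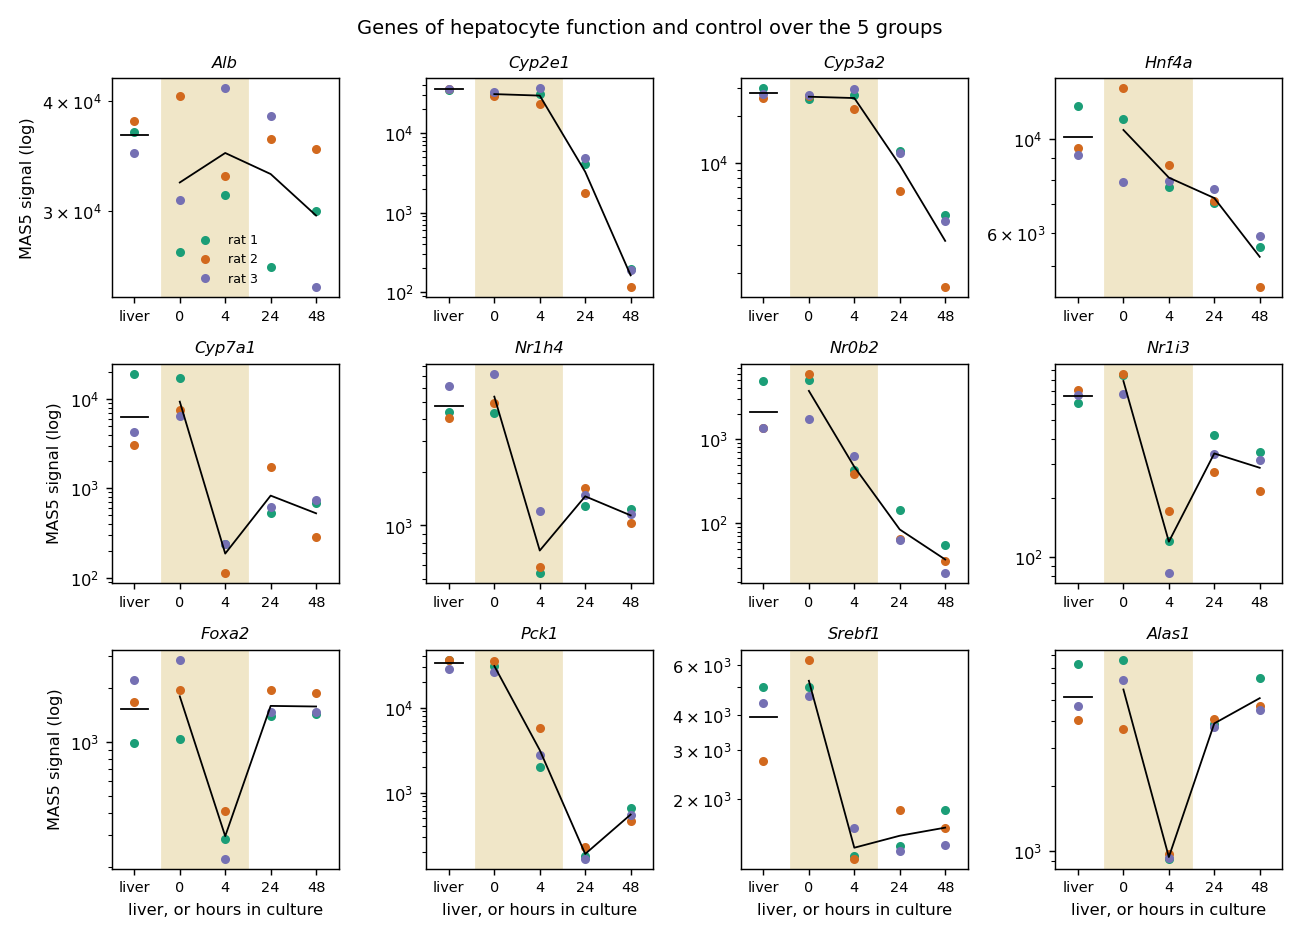
MAS5 signals (vertical axes, log scale) of 12 genes of hepatocyte function and its control in liver and at 0, 4, 24 and 48 hours (horizontal axes), 1 point per rat with a line through the geometric means, the 0 to 4 hour window shaded. Alb, Cyp2e1 and Cyp3a2 are level between 0 and 4 hours, while Cyp7a1, Nr1h4, Nr0b2, Nr1i3, Foxa2, Pck1, Srebf1 and Alas1 drop within the window.

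No bile acid gene rose. Of 38 genes of synthesis and transport, 0 rose, 16 fell and 22 did not pass (with 1 rat left out 9 to 12 fell), and their median log2 fold change was -0.49. Besides Cyp7a1, described above, Amacr, a racemase of side chain shortening, had signals of 20384, 27766 and 20869 at 0 hours and 6647, 10727 and 8028 at 4 hours (log2 fold change -1.46, SE 0.22, adjusted p = 2.37e-04). Baat, which conjugates bile acids to amino acids, fell from a mean of 22644 to 8728 (log2 fold change -1.38, SE 0.22, adjusted p = 3.01e-04). Main transporters of both membranes did not pass, with Slc10a1, or NTCP, of the sinusoidal side at -0.22 (SE 0.23, adjusted p = 0.490) and Abcb11, the bile salt export pump, at -0.02 (SE 0.32, adjusted p = 0.967).

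Pdk4, Angptl4 and Irs1 fell among the genes of fuel use. Of 26 genes of gluconeogenesis and glycogen, 1 rose, 7 fell and 18 did not pass (with 1 rat left out 2 to 4 fell, and with arrays centred 3 fell), and their median log2 fold change was -0.38. The share that fell, 26.9%, was near the 22.7% over all genes. Of 43 genes of fatty acid oxidation and ketogenesis, 1 rose, 14 fell and 28 did not pass (with 1 rat left out 0 to 1 rose and 5 to 10 fell, and with arrays centred 8 fell), and their median log2 fold change was -0.45 (32.6% fell). Pdk4, which blocks the use of glucose, had signals of 3328, 3288 and 6014 at 0 hours and 543, 342 and 951 at 4 hours (log2 fold change -2.85, SE 0.32, adjusted p = 2.27e-05), and Angptl4, a fasting-induced inhibitor of lipoprotein lipase, fell from a mean of 6852 to 1166 (log2 fold change -2.56, SE 0.34, adjusted p = 7.73e-05). Irs1, an adapter of the insulin receptor, fell from a mean of 272 to 63.5 (log2 fold change -2.10, SE 0.30, adjusted p = 1.46e-04). On the side of lipid synthesis, of 32 genes, 9 rose, 5 fell and 18 did not pass (with 1 rat left out 4 to 7 rose and 1 to 4 fell, and with arrays centred 3 fell), and their median log2 fold change was 0.03. Srebf1, the insulin-induced factor of lipogenesis, had 5029, 6269.9 and 4677 at 0 hours and 1255, 1227 and 1575 at 4 hours (log2 fold change -1.98, SE 0.23, adjusted p = 2.56e-05), while Pnpla3, a lipase of lipid droplets that is usually induced by it, had 237, 254 and 429.5 at 0 hours and 4361, 3574 and 3189.8 at 4 hours (log2 fold change 3.64, SE 0.41, adjusted p = 2.00e-05). The 2 genes moved in opposite directions in all 3 rats. Of 22 genes of cholesterol synthesis and uptake, 2 rose, 5 fell and 15 did not pass (with 1 rat left out 1 to 2 rose and 2 to 3 fell, and with arrays centred 2 fell), and their median log2 fold change was -0.26, with Sqle, squalene epoxidase, up from a mean of 1765 to 7717 (log2 fold change 2.13, SE 0.29, adjusted p = 9.90e-05) and Dhcr7, which makes cholesterol in the last step, down from a mean of 8285 to 3915 (log2 fold change -1.08, SE 0.20, adjusted p = 9.06e-04).

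Of 64 genes of the urea cycle and amino acid catabolism, 6 rose, 23 fell and 35 did not pass (with 1 rat left out 6 to 9 fell, and with arrays centred 4 fell), and their median log2 fold change was -0.42. The share that rose, 9.4%, was under the 16.3% over all genes, and 35.9% fell, against 22.7%. Some genes of the cycle were among those that rose. Slc25a15, the ornithine carrier of mitochondria, had signals of 10554, 8575 and 7563 at 0 hours and 19894, 18937 and 22259 at 4 hours (log2 fold change 1.20, SE 0.20, adjusted p = 4.09e-04). Asl, argininosuccinate lyase, went from a mean of 5948 to 12523 (log2 fold change 1.07, SE 0.22, adjusted p = 0.00187), and Nags, which makes the activator of the first step, from a mean of 3329 to 5727 (log2 fold change 0.78, SE 0.17, adjusted p = 0.00314). Those that fell included catabolic enzymes such as Mccc1, of leucine breakdown, at -0.91 (SE 0.18), and Cth, of cysteine synthesis, at -0.81 (SE 0.16). Few secreted plasma proteins changed. Of 61 plasma, coagulation and complement proteins, 1 rose, 8 fell and 52 did not pass (with 1 rat left out 3 to 4 fell, and with arrays centred 2 fell), and their median log2 fold change was -0.14. Agt, angiotensinogen, was the 1 that rose (log2 fold change 0.94, SE 0.15, adjusted p = 3.57e-04), and Cpn1, a carboxypeptidase that inactivates anaphylatoxins, fell from a mean of 4634 to 2249 (log2 fold change -1.04, SE 0.16, adjusted p = 2.34e-04). Of 23 apolipoprotein and lipoprotein genes, 3 rose, 3 fell and 17 did not pass (with the rat as a block 6 fell), and their median log2 fold change was -0.05. Lrp1, a clearance receptor, fell from a mean of 4082 to 1322 (log2 fold change -1.63, SE 0.22, adjusted p = 8.81e-05), a call lost with the mean of its probe sets (adjusted p = 0.0624).

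Genes of growth factor signaling moved both ways, in shares near those over all genes (16.3% up, 22.7% down). In the TGF-beta and activin list 15.8% rose and 23.7% fell, and in the EGF, HGF and FGF list 15.6% and 28.1%. Of 38 genes of TGF-beta and activin signaling, 6 rose, 9 fell and 23 did not pass (with 1 rat left out 3 to 4 rose), and their median log2 fold change was -0.03. The subunits of activin moved in opposite directions. Inhba, given above, fell, and Inhbb, the beta B subunit, had signals of 7.89, 7.19 and 6.29 at 0 hours and 284, 141 and 451 at 4 hours (log2 fold change 5.21, SE 0.50, adjusted p = 5.85e-06, 2.89 with the offset). Fstl3, which traps activin, went from a mean of 20.1 to 109 (log2 fold change 2.44, SE 0.39, adjusted p = 3.44e-04, 1.34 with the offset). Smad7, the inhibitor of the pathway, had 600.3, 389 and 513 at 0 hours and 109.7, 66.1 and 127 at 4 hours (log2 fold change -2.34, SE 0.26, adjusted p = 2.03e-05). Inhbb had a mean of 78.5 at 24 hours and 5.83 at 48 hours. Of 32 genes of EGF, HGF and FGF signaling, 5 rose, 9 fell and 18 did not pass (with 1 rat left out 4 to 5 fell), and their median log2 fold change was -0.04. Nrg1, a ligand of ErbB3, rose from a mean of 69.9 to 329 (log2 fold change 2.24, SE 0.22, adjusted p = 7.28e-06), Egf fell from a mean of 1235 to 579.7 (log2 fold change -1.09, SE 0.23, adjusted p = 0.00212), and Fgfr2, an FGF receptor, rose from a mean of 718 to 1583 (log2 fold change 1.14, SE 0.21, adjusted p = 9.63e-04).

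Dexamethasone was in the plating medium, and some of its targets rose while others fell. Of 35 targets of the glucocorticoid receptor, 10 rose, 8 fell and 17 did not pass (with 1 rat left out 6 to 8 rose), and their median log2 fold change was 0.25. The share that fell, 22.9%, was near the 22.7% over all genes, and 28.6% rose, against 16.3%. Fkbp5, the immunophilin that tracks receptor activity in many tissues, had signals of 325, 416 and 330.0 at 0 hours and 2571, 4121 and 4291 at 4 hours (log2 fold change 3.33, SE 0.20, adjusted p = 1.91e-07). Tat, tyrosine aminotransferase, a classic target in liver, did not pass (log2 fold change -0.31, SE 0.25, adjusted p = 0.362), and Tsc22d3, or GILZ, another target, fell from a mean of 3594 to 1434 (log2 fold change -1.33, SE 0.31, adjusted p = 0.00424). Its call was lost without rat 1 in all groups (adjusted p = 0.0940).

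Genes of DNA replication and mitosis fell more often than they rose. Of 49 S phase and mitosis genes tested, 4 rose, 24 fell and 21 did not pass (with 1 rat left out 2 to 4 rose and 9 to 23 fell), and their median log2 fold change was -0.87. Mcm10, a replication initiation factor, had signals of 508, 285 and 312 at 0 hours and 129, 74.6 and 93.9 at 4 hours (log2 fold change -1.88, SE 0.32, adjusted p = 5.40e-04), while Mcm7, of the replicative helicase, went from a mean of 550.4 to 908 (log2 fold change 0.72, SE 0.13, adjusted p = 7.07e-04). Of 37 genes of G1 control, p53 response and cell death, 12 rose, 11 fell and 14 did not pass (with 1 rat left out 7 fell), and their median log2 fold change was -0.20. Ccng1, cyclin G1, a p53 target, had 532, 449 and 593 at 0 hours and 6558, 7689.9 and 5899 at 4 hours (log2 fold change 3.68, SE 0.16, adjusted p = 1.23e-08), and Rb1, the retinoblastoma protein that holds cells before S phase, 605, 1039 and 586 at 0 hours and 145, 115 and 117 at 4 hours (log2 fold change -2.52, SE 0.23, adjusted p = 3.69e-06). Neither overlapped. Bcl2l11, or BIM, a trigger of apoptosis, rose from a mean of 416 to 3096 (log2 fold change 2.89, SE 0.30, adjusted p = 1.10e-05), and Cdkn1a, the inhibitor p21, from a mean of 1139 to 4339 (log2 fold change 1.93, SE 0.51, adjusted p = 0.00949), while Phlda3, a p53-induced inhibitor of Akt, fell from a mean of 890.5 to 191 (log2 fold change -2.22, SE 0.30, adjusted p = 9.52e-05).

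Many markers of other liver cells fell. Acta2, smooth muscle actin of activated stellate cells (log2 fold change 1.19, SE 0.37, adjusted p = 0.0224), and Fabp4, given above, rose. The rise of Acta2 did not pass without the 0 hour sample of rat 2, without the 4 hour sample of rat 1, without rat 1, 2 or 3 in all groups or with the 0 and 4 hour samples fitted alone (adjusted p = 0.0564 to 0.101). Of 25 stellate and fibroblast markers, 1 rose, 14 fell and 10 did not pass (with 1 rat left out 0 to 1 rose and 6 to 14 fell), and their median log2 fold change was -1.25, of 33 sinusoidal endothelial markers, 1 rose, 17 fell and 15 did not pass (with 1 rat left out 1 to 2 rose and 11 to 17 fell, and with the rat as a block 2 rose, and with arrays centred 2 rose), and their median log2 fold change was -1.11, and of 25 Kupffer cell markers, 0 rose, 11 fell and 14 did not pass (with 1 rat left out 4 to 9 fell), and their median log2 fold change was -0.73. Kdr, the VEGF receptor of endothelium, had signals of 3711, 2168 and 2785 at 0 hours and 388, 292 and 684 at 4 hours (log2 fold change -2.73, SE 0.48, adjusted p = 6.10e-04), a call lost with the mean of its probe sets (adjusted p = 0.0769). Vipr1, a receptor listed with the stellate markers, had 1614, 805 and 995 at 0 hours and 166, 109 and 236 at 4 hours (log2 fold change -2.75, SE 0.31, adjusted p = 2.11e-05), and Clec4f, whose signals are given above, a log2 fold change of -1.29 (SE 0.19). Within each list some defining markers did not pass, such as Cd68 of macrophages (log2 fold change -0.15, SE 0.23, adjusted p = 0.650), Pecam1 of endothelium (log2 fold change -0.31, SE 0.31, adjusted p = 0.461) and Col1a1 of fibroblasts (log2 fold change -0.35, SE 0.44, adjusted p = 0.561), whose signals were 98.9, 42.5 and 44.7 at 0 hours and 61.0, 40.5 and 36.5 at 4 hours. Stab2, a scavenger receptor of sinusoids, fell from a mean of 1133 to 427 (log2 fold change -1.41, SE 0.46, adjusted p = 0.0275), and its call was lost without the 0 hour sample of rat 1 or 3, without the 4 hour sample of rat 2, without rat 1 or 3 in all groups or with the 0 and 4 hour samples fitted alone (adjusted p = 0.0630 to 0.178). Hbb, hemoglobin of red cells, had 921, 69.7 and 355 at 0 hours and 99.2, 101 and 329 at 4 hours and overlapped widely (log2 fold change -0.93, SE 1.05, adjusted p = 0.516), against a liver mean of 20335. The 8 tested bile duct markers had a sum between 1803 and 2440.3 at 0 hours, against 3037 to 3979 at 4 hours (exact p = 0.1). Of these 8, 3 rose, 1 fell and 4 did not pass (with 1 rat left out 1 to 2 rose and 0 to 1 fell). Their median log2 fold change was 0.19, with a range of -1.11 to 1.37. Epcam, an adhesion molecule of ducts and progenitors, rose from a mean of 896 to 2312 (log2 fold change 1.37, SE 0.19, adjusted p = 1.22e-04). Its signal is a large part of the sum at 4 hours.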

How the data were processed

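RNA was extracted with Trizol and RNeasy, labelled with biotin and hybridized to Affymetrix RG230-2 arrays. The authors deposited MAS5 signal intensities on a linear scale, scaled by the authors to a mean of 500 after trimming 2% at each end, which was checked on each array. The submitters' processing notes name MAS5 and affy, but not which of them made the values. Of 31099 probe sets, 20826 have 1 listed gene, 436 several and 9780 none, and the rest are 57 controls. The number of rats, 3 per group, limits the precision.

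Signals were taken to log2 and the arrays of each rat and time were averaged. A probe set had to lie above its array's median on at least 5 arrays. The brightest probe set stood for each of 10643 genes. A limma model (version 3.58.1, R 4.3.3) was fitted to all 15 samples of 5 groups, so that the other groups share the estimate of the spread, with 4 vs. 0 hours as the contrast, after tests on simulated data. Same-numbered samples come from the same rat, and their deviations from the group means correlated at 0.447, 0.480 and 0.431, against -0.277 to -0.177 between rats. Since the deviations of a group cancel over its rats, the negative values follow from the positive ones and are no separate evidence. With the rat as a block, as a paired analysis, 1992 genes rose and 2964 fell.

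The comparison, the 59 gene lists and the tests were chosen with earlier results of these data known. Named genes were the 15 largest rises and falls above the median signal with 1 direction in all rats, up to 4 called genes each way per list, and a few set markers. Another 33 genes were named after their values were seen, to give members of a list that did not pass or to name all of a small count, among them Stat3, Il6r, Srf, Relb and those shown with an E box. The alternatives were other normalization (array median, quantile), filters, offsets, probe set choices, units and priors, the pair of groups alone, and leaving out samples or rats. The fit without liver was added after the data were seen. Promoter sequences are RefSeq GRCr8, found for 8894 genes, 250 bases before to 50 after the start.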

Additional observations from a re-analysis of the deposited data

How the results depend on the processing

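Of 314 called genes named here that could be tested under all 22 alternatives, 202 passed in each. Of 341 called and named in all, 215 passed whichever sample or rat was left out, and none reversed. Requiring more than 2-fold as well left 1983 changed genes (915 rose, 1068 fell). With each array centred on its median, 1583 genes fell. With 1 sample, or 1 rat in all groups, left out, 2632 to 3611 genes changed and 1411 to 2142 fell. The lowest values are those without a rat, where each group has 2 samples. The other counts of changed, rising and falling genes stayed within 1.5 times of the reported ones, and that includes the fit without liver (3930 changed), which was chosen after seeing the data. With the rat as a block 4956 genes changed, and 4136 of the 4144 calls kept their direction. It moved 8 list counts by over 1.5 times, each given beside its list. The cause of these differences was not tested. Signals near background limit the folds, since 69 of the genes that rose had a 0 hour mean under 32 and 147 that fell a 4 hour mean under 32. Of the list counts, 2214 recomputed values stayed within 1.5 times and 378 moved.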

Other observations

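Among clock genes Npas2 fell and Per3 rose, with shares near or under those over all genes (16.3% up, 22.7% down). Of 22 tested, 4 rose, 3 fell and 15 did not pass (with 1 rat left out 1 to 6 rose and 1 to 4 fell, and with the rat as a block 5 fell), and their median log2 fold change was 0.38. Npas2, a partner of BMAL1, had signals of 1164, 724 and 540.5 at 0 hours and 194, 218 and 224 at 4 hours (log2 fold change -1.86, SE 0.31, adjusted p = 4.46e-04). Per3, a period gene, had 15.6, 9.11 and 7.71 at 0 hours and 125, 152 and 24.5 at 4 hours (log2 fold change 2.91, SE 0.59, adjusted p = 0.00174, 1.48 with the offset), a call lost without rat 2 in all groups or without the filter on absent genes (adjusted p = 0.0505 to 0.226). The time of day at sampling was not used here. Iron and heme genes held some of the largest moves on both sides. Of 32 genes of metal and heme handling, 6 rose, 13 fell and 13 did not pass (with 1 rat left out 3 to 6 rose and 7 to 8 fell), and their median log2 fold change was -0.41. Alas1, the rate-limiting enzyme of heme synthesis, had 7628, 3678 and 6165 at 0 hours and 924, 972 and 928 at 4 hours (log2 fold change -2.57, SE 0.26, adjusted p = 8.91e-06) and a mean of 3887 at 24 hours. It fell while Hmox1, which breaks heme down, rose.

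Interferon-responsive genes moved both ways, in shares near or under those over all genes. Of 39 tested, 4 rose, 9 fell and 26 did not pass (with 1 rat left out 5 to 7 fell), and their median log2 fold change was -0.43. Cxcl9, a chemokine for T cells, rose from a mean of 300.4 to 2415 (log2 fold change 3.01, SE 0.40, adjusted p = 7.70e-05), Ifih1, a sensor of double-stranded RNA, from a mean of 240.2 to 984 (log2 fold change 2.04, SE 0.37, adjusted p = 8.98e-04), and Dhx58, a relative of that sensor, fell from a mean of 236 to 82.1 (log2 fold change -1.52, SE 0.26, adjusted p = 4.86e-04). Of 16 annexins and S100 proteins, 4 rose, 1 fell and 11 did not pass (with 1 rat left out 1 to 2 fell), and their median log2 fold change was -0.30. Anxa2, an annexin that links actin to membranes, had signals of 403, 259 and 304 at 0 hours and 1202, 1228 and 950.1 at 4 hours (log2 fold change 1.82, SE 0.20, adjusted p = 1.47e-05), and its partner S100a10 530.0, 292 and 669 at 0 hours and 1507, 1935 and 1135 at 4 hours (log2 fold change 1.67, SE 0.30, adjusted p = 8.21e-04). Both partners were higher in every 4 hour sample. Of 20 tubulin and microtubule genes, 6 rose, 3 fell and 11 did not pass (with 1 rat left out 1 to 2 fell, and with arrays centred 1 fell), and their median log2 fold change was -0.07. Map1b, a microtubule protein of growing neurites, rose from a mean of 38.9 to 328 (log2 fold change 3.08, SE 0.48, adjusted p = 2.85e-04). Of 24 genes of the growth hormone axis, 3 rose, 3 fell and 18 did not pass (with 1 rat left out 1 to 3 rose and 0 to 2 fell), and their median log2 fold change was -0.19. Jak2, the kinase of its receptor, rose from a mean of 89.6 to 211 (log2 fold change 1.23, SE 0.27, adjusted p = 0.00264).

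Of 12 lymphocyte markers, 1 rose, 2 fell and 9 did not pass (with 1 rat left out 0 to 2 fell), and their median log2 fold change was -0.43. Of 8 MHC class II genes, 0 rose, 3 fell and 5 did not pass (with 1 rat left out 0 to 1 fell, and with arrays centred 1 fell), and their median log2 fold change was -0.50. Of 5 platelet markers, 1 rose, 1 fell and 3 did not pass (with 1 rat left out 0 to 1 rose), and their median log2 fold change was -0.75. None of the 5 hemoglobin and erythroid genes passed limma's test (0 at an unadjusted p under 0.05). The 2 neutrophil markers did not pass either (log2 fold change -1.19, SE 0.46, adjusted p = 0.0566 for S100a9, an alarmin), though S100a9 did without the 0 hour sample of rat 2, without the 4 hour sample of rat 1, without rat 1 in all groups, with the 0 and 4 hour samples fitted alone, with the rat as a block in those samples or without the liver samples (adjusted p = 0.0141 to 0.0468).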
